A study of Mus musculus with 14 samples.

Results

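Leukotrienes and prostanoids are signalling lipids made from arachidonic acid that phospholipases release from membranes. In the leukotriene branch the lipoxygenase Alox5 works with its activating protein Alox5ap, and the product is passed either to the hydrolase Lta4h, which makes a neutrophil attractant, or to the synthase Ltc4s, which makes the cysteinyl leukotrienes that dipeptidases such as Dpep2 trim. In the prostanoid branch the cyclooxygenases Ptgs1, which is made constitutively in many cells, and Ptgs2, which is inducible, carry out the committed step. Fpr1 and Fpr2 are receptors of myeloid cells for formyl peptides, and Fpr2 also binds lipid mediators and annexin A1. Ephx2, the soluble epoxide hydrolase, is abundant in hepatocytes and inactivates the epoxides that cytochromes P450 make from arachidonic acid.

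These 10 genes, of 25212 rows in the deposited count table, were selected by their symbols and followed in 14 mouse livers. The mice were male C57BL/6 on a high-fat diet (HFD), and all 3 groups had been made obese by it. The DIO group of 5 had no operation. The GB-IL group of 4 had the gallbladder joined to the ileum with the common bile duct tied off, so that bile entered the distal gut. The RYGB group of 5 had Roux-en-Y gastric bypass, and the labels place both operated groups 8 weeks after surgery. A sham-operated group was not analysed here, so the operation itself and its intended effect cannot be told apart in the comparisons with DIO. Of the 10 genes, 6 were plotted by the study for these same livers, so their values are no independent evidence of a direction.

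Each liver gave 1 library of 18223135 to 28656631 counts. Counts scaled by edgeR's TMM method are given as CPM, a library's count of a gene relative to its scaled total, with the mean ± SD over the livers of a group. The tested differences are log2 fold changes with their standard error (SE) from edgeR's quasi-likelihood test, adjusted over 14252 genes at a false discovery rate of 0.05. Nothing in the labels says more about the replicates than that they are separate livers. GB-IL liver 4 stood apart from the other GB-IL livers: on the first principal component, with 48.5% of the variance, it lay at -35.3, among the DIO livers at -45.7 to -21.9, while GB-IL livers 1 to 3 lay at 134, 106 and 20.1. RYGB livers 2, 3 and 4 lay there too, at -24.3, -33.8 and -32.2, and RYGB livers 1 and 5 at -2.14 and 17.4. Hepatocyte markers summed to 120662 to 150782 CPM in DIO, 100552 to 123301 CPM in GB-IL and 119562 to 138376 CPM in RYGB, and none of the 7 tested passed the test in any comparison. Albumin, Alb, made up 57.0% to 84.3% of each sum.

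Promoter sequences were found in RefSeq for 7 of the 10 genes. The 250 bases before the start site are shown for the neighbouring receptor genes and the 2 cyclooxygenases, which allow a comparison within each family, and for Alox5, 5′ to 3′ on the gene's strand in build GRCm38.p6. They lie at chr17:17883940-17884189 on the minus strand for Fpr1, chr17:17887574-17887823 on the plus strand for Fpr2, chr2:36230176-36230425 on the plus strand for Ptgs1, chr1:150099781-150100030 on the plus strand for Ptgs2 and chr6:116461179-116461428 on the minus strand for Alox5. Capitals mark GGGCGG (GC box), GAGGAA (the core bound by PU.1, a myeloid factor) and TTGCGCAA (a C/EBP palindrome), on either strand. These words were chosen with the sequences in view.
Fpr1: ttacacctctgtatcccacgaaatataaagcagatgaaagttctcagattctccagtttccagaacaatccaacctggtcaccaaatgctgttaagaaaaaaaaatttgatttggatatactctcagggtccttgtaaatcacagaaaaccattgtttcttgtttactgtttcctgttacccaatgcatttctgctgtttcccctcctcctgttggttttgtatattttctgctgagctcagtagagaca
Fpr2: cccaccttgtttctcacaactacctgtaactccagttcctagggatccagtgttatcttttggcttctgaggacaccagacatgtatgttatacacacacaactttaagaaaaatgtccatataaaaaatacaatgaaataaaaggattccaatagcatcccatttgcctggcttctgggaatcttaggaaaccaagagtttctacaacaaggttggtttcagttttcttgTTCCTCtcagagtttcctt
Ptgs1: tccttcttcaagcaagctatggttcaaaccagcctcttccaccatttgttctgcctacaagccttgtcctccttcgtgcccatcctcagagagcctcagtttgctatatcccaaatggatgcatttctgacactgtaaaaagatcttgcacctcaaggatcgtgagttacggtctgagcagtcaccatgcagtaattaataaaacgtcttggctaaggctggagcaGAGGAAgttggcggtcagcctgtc
Ptgs2: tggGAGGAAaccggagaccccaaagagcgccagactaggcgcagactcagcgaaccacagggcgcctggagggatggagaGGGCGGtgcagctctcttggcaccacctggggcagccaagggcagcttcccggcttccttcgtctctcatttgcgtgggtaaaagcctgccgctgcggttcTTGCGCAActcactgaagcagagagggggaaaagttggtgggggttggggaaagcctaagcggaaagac
Alox5: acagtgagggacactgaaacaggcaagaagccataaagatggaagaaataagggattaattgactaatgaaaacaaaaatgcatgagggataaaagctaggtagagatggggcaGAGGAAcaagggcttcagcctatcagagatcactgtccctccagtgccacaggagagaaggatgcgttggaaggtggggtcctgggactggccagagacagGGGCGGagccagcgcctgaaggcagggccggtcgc
The 2 receptor promoters held 38.4% and 38.8% G and C, against 48.0% for Ptgs1, 52.8% for Alox5 and 61.6% for Ptgs2. GAGGAA, which 23.3% of 32851 mouse promoters hold in this window, lay 24 to 19 bases before the start of Ptgs1 and on the other strand 19 to 14 bases before that of Fpr2, and it occurred in Alox5 and Ptgs2 as well. GGGCGG, found in 32.7% of promoters, occurred in Alox5 and Ptgs2. TTGCGCAA, found in 0.164%, occurred in Ptgs2, 69 to 62 bases before the start. A match is only a match of letters. Part of the Ptgs2 window is also an exon of the antisense gene Ptgs2os.

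Compared per kilobase of exon in the DIO livers, the levels spanned a wide range. Ephx2 stood first with 480 ± 61.3 CPM per kb (SD, n = 5). Lta4h followed with 5.60 ± 0.595, Ptgs1 with 4.33 ± 0.594, Fpr1 with 3.57 ± 1.21, Alox5ap with 2.00 ± 0.379 and Fpr2 with 1.17 ± 0.626 CPM per kb. The lowest were Ltc4s with 0.534 ± 0.181, Dpep2 with 0.0572 ± 0.0256, Alox5 with 0.0228 ± 0.0118 and Ptgs2 with 0.00667 ± 0.0101 CPM per kb. Within this order the SD ranges of Ptgs1 and Fpr1, of Fpr1 and Alox5ap, of Alox5ap and Fpr2, of Fpr2 and Ltc4s, of Dpep2 and Alox5 and of Alox5 and Ptgs2 overlapped. In the GB-IL livers Alox5ap (7.96 ± 4.01), Fpr1 (7.81 ± 5.23), Ptgs1 (6.96 ± 2.12), Fpr2 (5.68 ± 3.30) and Lta4h (5.12 ± 0.944 CPM per kb, n = 4) all lay within overlapping SD ranges.

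Against the DIO livers, 3 of the 8 genes with enough counts to be tested rose in the GB-IL livers (Fpr2, Dpep2 and Alox5ap) and none fell, where 3.26% of all tested genes passed in either direction and 3.15% rose. In RYGB none passed, where 0% of all genes did. Over the 8 the median was 0.91 (log2) in GB-IL and 0.08 in RYGB, beside 0.04 and 0.01 over all genes. Dpep2 entered the test only through livers in which it was high, since 0 DIO livers, 3 GB-IL livers and 1 RYGB liver reached the filter's level, so these counts and medians describe and do not support. The 3 calls were lost when any 1 DIO liver or GB-IL liver 1 or 2 was left out, fits in which 0 of all genes passed, so the same holds for every other gene called in this comparison. Without GB-IL liver 4, 6 of the 9 genes tested passed, Ptgs1, Ephx2 and Alox5 besides these 3. In that fit 3572 or 24.6% of all genes passed. Alox5, too, entered that fit only through livers in which it was high. In bulk tissue a larger number of cells of a type and more RNA per cell cannot be told apart.

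**Figure D1:**
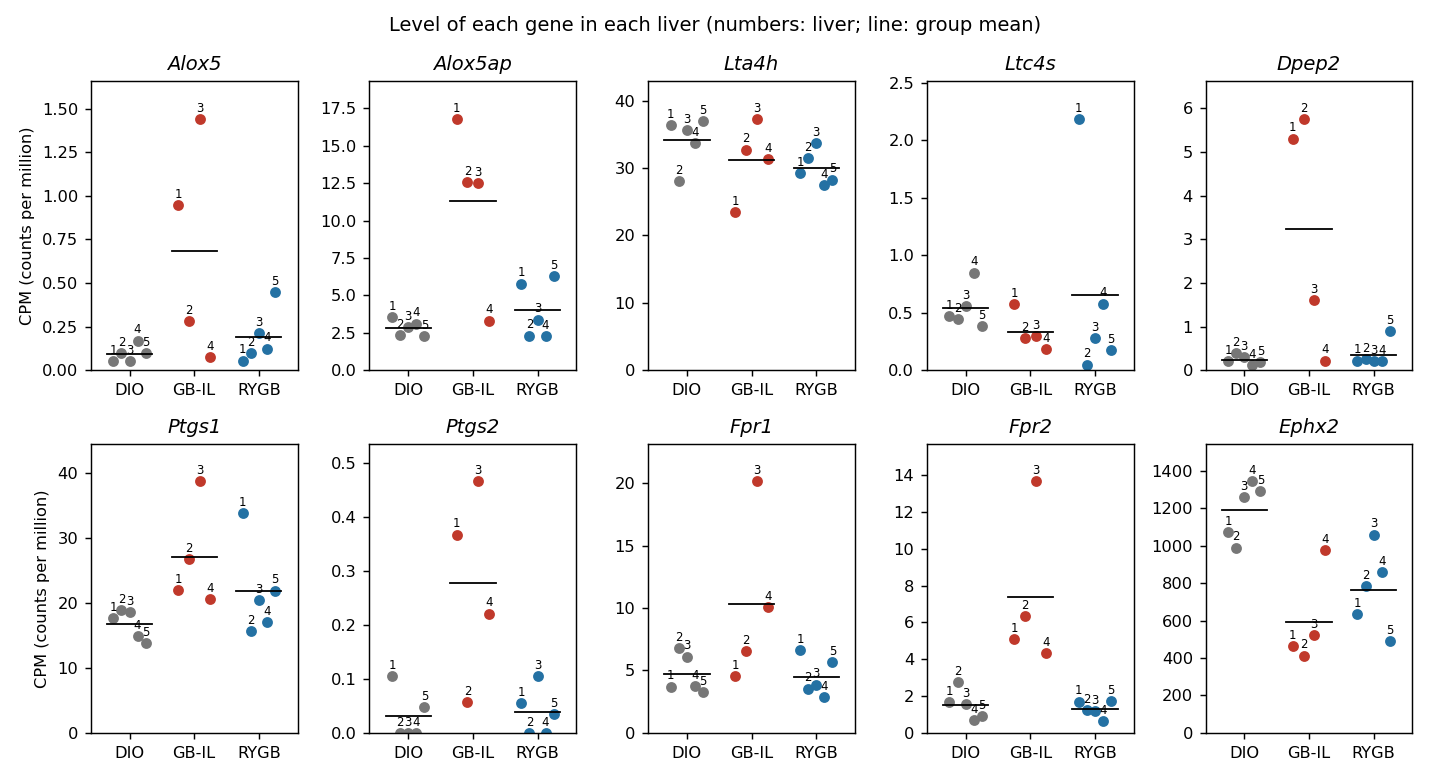
CPM (linear axis from 0) of the 10 genes in each liver, with 1 point for each liver numbered within its group and a line at the group mean, for 5 DIO, 4 GB-IL and 5 RYGB livers. Fpr2 and Ptgs1 lay higher, and Ephx2 lower, in all 4 GB-IL livers than in every DIO liver, while Alox5ap and Dpep2 of GB-IL liver 4 lay within the DIO range.

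Alox5 (chromosome 6, 116410077 to 116461178, minus strand) was close to absent from the livers on the HFD alone. Its counts were 1, 2, 1, 3 and 2 in DIO livers 1 to 5, then 18, 5, 34 and 2 in GB-IL livers 1 to 4 and 1, 2, 6, 3 and 13 in RYGB livers 1 to 5. GB-IL livers 1 to 3 were above every DIO liver, GB-IL liver 4 was not, and RYGB livers 3 and 5 exceeded the DIO range. The rate in GB-IL was 7.32 times that in DIO (exact Clopper-Pearson 95% interval 3.60 to 16.8, for counting error only), and the exact two-sided permutation test over the livers gave p = 0.0635, unadjusted among 6 such tests and with 0.0159 as the smallest possible value. In RYGB the ratio was 2.26 (1.02 to 5.50, exact permutation p = 0.190), and between GB-IL and RYGB it was 3.24 (2.00 to 5.40, exact permutation p = 0.159). A fit of all genes without the filter on low counts gave a log2 fold change of 2.78 for GB-IL against DIO (adjusted p = 0.0665). Without GB-IL liver 3 the ratio to DIO was 4.24 (1.92 to 10.3, exact permutation p = 0.143) and that to RYGB 1.88, and without RYGB liver 5 the ratio of RYGB to DIO was 1.43 and of GB-IL to RYGB 5.13. Without GB-IL liver 4 the exact permutation p against DIO was 0.0357, the smallest that 3 against 5 livers allow, and the gene then entered and passed edgeR's test (adjusted p = 0.00470). It entered only through livers in which it was high, since 0 DIO livers, 2 GB-IL livers and 1 RYGB liver reached the filter's level. This pass therefore describes and does not support. Without GB-IL liver 2 the gene was also tested and did not pass, in a fit in which 0 of all genes did.

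Alox5ap (chromosome 5, 149264767 to 149288153, plus strand) presents arachidonic acid to Alox5 and was more abundant than its partner in every liver per kilobase. The DIO livers held 3.56, 2.36, 2.90, 3.11 and 2.26 CPM, the GB-IL livers 16.8, 12.6, 12.5 and 3.32 CPM, and the RYGB livers 5.80, 2.32, 3.38, 2.28 and 6.30 CPM. The first 3 GB-IL livers were higher than all DIO and RYGB livers, and GB-IL liver 4 was inside the DIO range. The log2 fold change was 1.99 (SE 0.414, adjusted p = 0.0287) in GB-IL against DIO, a 3.97-fold rise, and 0.50 (SE 0.392, adjusted p = 0.746) in RYGB, of which livers 1 and 5 lay above the DIO range. GB-IL against RYGB gave 1.49 (SE 0.407, adjusted p = 0.0949), past the threshold without GB-IL liver 4 (adjusted p = 0.00505) and by DESeq2 (adjusted p = 0.0144). In an edgeR fit of only these 2 groups it was not past it (adjusted p = 0.276).

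The enzymes that take up the product of Alox5 did not pass the test. Lta4h (chromosome 10, 93453411 to 93484875, plus strand) held 36.4, 28.0, 35.6, 33.7 and 37.0 CPM in DIO, 23.5, 32.8, 37.3 and 31.3 CPM in GB-IL and 29.2, 31.5, 33.7, 27.4 and 28.3 CPM in RYGB. The 3 groups overlapped and the level varied little, with log2 fold changes of -0.13 (SE 0.151, adjusted p = 0.597) in GB-IL and -0.19 (SE 0.142, adjusted p = 0.743) in RYGB, and 0.06 (SE 0.151, adjusted p = 0.833) between GB-IL and RYGB. Ltc4s (chromosome 11, 50236461 to 50238616, minus strand) had counts of 9, 9, 11, 15 and 8 in DIO, 11, 5, 7 and 5 in GB-IL and 40, 1, 8, 14 and 5 in RYGB. GB-IL livers 2 to 4 were below the DIO range, and RYGB liver 1 alone held more than the other RYGB livers together. The log2 fold changes were -0.70 (SE 0.767, adjusted p = 0.572) in GB-IL and 0.23 (SE 0.684, adjusted p = 0.943) in RYGB, the latter turning to -0.96 without RYGB liver 1. GB-IL against RYGB gave -0.93 (SE 0.758, adjusted p = 0.458), which turned to 0.27 without that liver. Ltc4s shares 268 bases of exon with the antisense gene Gm26542, and the strand setting of the counting is not given in the sources used here.

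Dpep2 (chromosome 8, 105984944 to 105991759, minus strand) encodes a membrane dipeptidase that converts one cysteinyl leukotriene into the next. Its counts were 4, 8, 6, 2 and 4 in DIO, 101, 102, 38 and 6 in GB-IL and 4, 5, 6, 5 and 26 in RYGB. GB-IL livers 1 and 2 stood highest at 5.31 and 5.76 CPM, liver 3 followed at 1.61 CPM, and liver 4 at 0.221 CPM was inside the DIO range of 0.113 to 0.394 CPM. The log2 fold change of 3.68 (SE 0.758, adjusted p = 0.0286) in GB-IL against DIO was a 12.8-fold rise, and with voom and sample quality weights the value was 2.66 (adjusted p = 0.0252). Dpep2 entered the tests only through livers in which it was high, since 0 DIO livers, 3 GB-IL livers and 1 RYGB liver reached the filter's level. Its p-values in all comparisons therefore describe and do not support. In a fit of only the GB-IL and DIO livers, and in the fit without RYGB liver 5, Dpep2 was not tested. In RYGB against DIO its log2 fold change was 0.57 (SE 0.769, adjusted p = 0.867), with liver 5 at 0.900 CPM and the other 4 between 0.207 and 0.247 CPM. GB-IL against RYGB gave 3.11 (SE 0.717, adjusted p = 0.0807), past the threshold without GB-IL liver 4 (adjusted p = 0.00254) and by DESeq2 (adjusted p = 0.00199). In an edgeR fit of only these 2 groups it was not past it (adjusted p = 0.269). A second annotated gene of the same symbol, not analysed here, shares 31.8% of the 50-base words in the Dpep2 transcripts, and Dus2 on the other strand shares 150 bases of exon, so part of its reads could have been split or dropped in counting.

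Of the cyclooxygenases, Ptgs1 (chromosome 2, 36230426 to 36252272, plus strand) was measurable in every liver. DIO livers held 17.7, 18.9, 18.6, 14.9 and 13.8 CPM, GB-IL livers 22.0, 26.8, 38.8 and 20.6 CPM, and RYGB livers 33.8, 15.7, 20.5, 17.0 and 21.9 CPM. All 4 GB-IL livers were above all DIO livers, a pattern that 2.67% of all genes showed, but the log2 fold change of 0.69 (SE 0.236, adjusted p = 0.113) did not pass the test. It passed with voom and sample quality weights (1.01, adjusted p = 0.0422) and without GB-IL liver 4 (0.79, adjusted p = 0.0332). It did not pass by DESeq2, nor in a fit of only these 2 groups, where 0 of all genes passed. Of the RYGB livers, 1, 3 and 5 were above the DIO range, with a log2 fold change of 0.38 (SE 0.224, adjusted p = 0.662), and GB-IL against RYGB gave 0.31 (SE 0.236, adjusted p = 0.424).

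Ptgs2 (chromosome 1, 150100031 to 150108227, plus strand) was at the limit of detection. Its counts were 2, 0, 0, 0 and 1 in DIO, 7, 1, 11 and 6 in GB-IL and 1, 0, 3, 0 and 1 in RYGB. GB-IL livers 1, 3 and 4 were above every liver of the other groups, and GB-IL liver 2 lay within both ranges. Summed, 25 counts in GB-IL against 3 in DIO gave a ratio of rates of 9.30 (95% interval 2.84 to 48.1, counting error only) and against 5 in RYGB a ratio of 6.86 (2.58 to 23.0), each with an exact two-sided permutation p of 0.0317, unadjusted among the 6 tests. With 1 liver left out the exact permutation p was 0.0286 to 0.0714 in both. Without DIO liver 1, which leaves 1 count, the ratio to DIO was 22.4 (3.67 to 921), and without RYGB liver 3, which leaves 2, that to RYGB was 13.1 (3.27 to 114). Fitted without the filter, the log2 fold change of 2.95 against DIO had an adjusted p of 0.102. RYGB against DIO gave a ratio of 1.35 (0.264 to 8.72, exact permutation p = 0.762), which was 3.27 (0.366 to 155) without DIO liver 1 and fell below 1 without RYGB liver 3 (interval 0.0593 to 6.20).

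**Figure D2:**
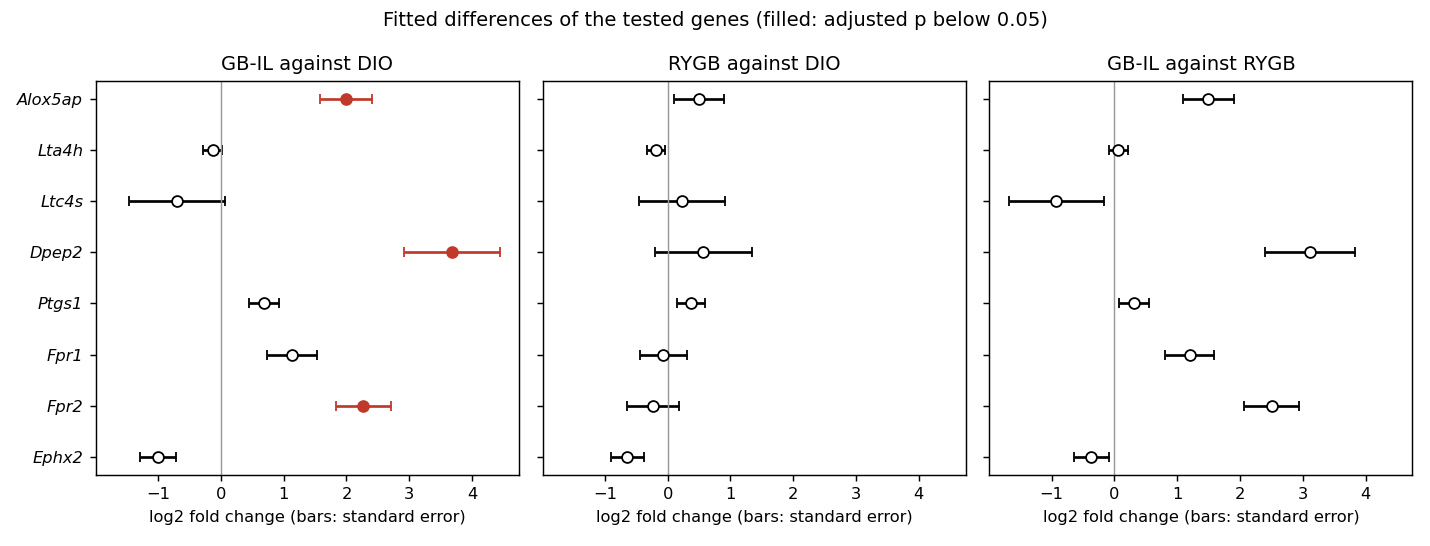
Fitted log2 fold changes (x axis) with their SE as bars for the 8 genes with enough counts, in 3 panels for the 3 comparisons, filled where the adjusted p was below 0.05. In GB-IL against DIO, Alox5ap (1.99), Dpep2 (3.68) and Fpr2 (2.27) are filled, and no point is filled in the other panels.

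Fpr1 (chromosome 17, 17876471 to 17883940, minus strand) and Fpr2 (chromosome 17, 17887824 to 17893952, plus strand) lie head to head, with 3884 bases between their starts. Fpr1 held 3.72, 6.79, 6.11, 3.73 and 3.27 CPM in DIO, 4.57, 6.55, 20.1 and 10.1 CPM in GB-IL and 6.62, 3.55, 3.87, 2.90 and 5.64 CPM in RYGB. GB-IL livers 3 and 4 were above the DIO range and livers 1 and 2 inside it. The log2 fold change was 1.13 (SE 0.393, adjusted p = 0.116) in GB-IL, falling to 0.59 without GB-IL liver 3, and -0.07 (SE 0.375, adjusted p = 0.972) in RYGB, where its sign turned in 4 of the fits that left out 1 liver. With voom and sample quality weights the GB-IL value was 1.77 (adjusted p = 0.0172). GB-IL against RYGB gave 1.20 (SE 0.393, adjusted p = 0.126), which passed by DESeq2 (adjusted p = 0.0492) and with voom (adjusted p = 0.0362). In a fit of only these 2 groups, where 0 of all genes passed, it did not pass.

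Fpr2 held 1.67, 2.76, 1.58, 0.679 and 0.913 CPM in DIO, 5.10, 6.33, 13.7 and 4.35 CPM in GB-IL and 1.70, 1.23, 1.20, 0.621 and 1.73 CPM in RYGB. Every GB-IL liver, liver 4 included, was above every liver of both other groups. Of all tested genes, 2.67% lay wholly above DIO in GB-IL and 1.27% wholly above RYGB. The rise against DIO was 2.27 (SE 0.435, adjusted p = 0.0278), or 4.82-fold, and was 1.79 without GB-IL liver 3, which held the most. Against RYGB the difference of 2.50 (SE 0.437, adjusted p = 0.0552) ranked 7 of 14252 genes by p-value. It did not pass the test, though it did by DESeq2 (adjusted p = 1.0063e-05), with voom and sample quality weights (adjusted p = 0.0147), with no filter (adjusted p = 0.0389) and without GB-IL liver 4 (adjusted p = 0.00351). In an edgeR fit of only these 2 groups it did not pass (adjusted p = 0.269). RYGB against DIO gave -0.23 (SE 0.420, adjusted p = 0.908). Per kilobase, the level of Fpr2 was 0.440 to 1.14 times that of Fpr1 in the GB-IL livers, 0.186 to 0.460 times in DIO and 0.219 to 0.355 times in RYGB. Fpr2 and Fpr1 transcripts share 1 of their 50-base words, whereas 28.4% of those of Fpr2 also occur in each of 2 pseudogenes and 6.33% in Fpr3, none of which was analysed here, so Fpr2 counts are less certain than those of Fpr1.

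Ephx2 (chromosome 14, 66084374 to 66124500, minus strand) was the abundant gene of the 10. It held 1075, 990, 1260, 1344 and 1294 CPM in DIO, 464, 413, 522 and 977 CPM in GB-IL and 635, 785, 1059, 858 and 490 CPM in RYGB. All 4 GB-IL livers were below all DIO livers, a pattern that 1.51% of all genes showed in this direction, although GB-IL liver 4 came close. The log2 fold change of -1.01 (SE 0.287, adjusted p = 0.0674) did not pass the test, whereas it passed by DESeq2 (adjusted p = 0.00830), with voom (adjusted p = 0.0225) and without GB-IL liver 4 (-1.36, adjusted p = 0.00300). In a fit of only these 2 groups, where 0 of all genes passed, it did not pass. In RYGB 4 of 5 livers were below the DIO range and the value was -0.64 (SE 0.266, unadjusted p = 0.0298, adjusted p = 0.547). GB-IL against RYGB gave -0.37 (SE 0.283, adjusted p = 0.431). Of the 7 hepatocyte markers, 3 were below 0.05 unadjusted in GB-IL against DIO, beside 23.1% of all genes, and not after adjustment. They were Ttr with -1.20 (adjusted p = 0.0816), Serpina1c with -1.15 (adjusted p = 0.0870), of which all 4 livers were below DIO, and Fga with 1.40 (adjusted p = 0.0622). The part of the hepatocytes in the Ephx2 values was not tested.

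None of the 8 tested genes passed edgeR's test in GB-IL against RYGB, where 0% of all genes did. At an unadjusted p below 0.05 there were 4 of 8, beside 22.1% of all genes. DESeq2 called 4, beside 5.96% of all genes, and voom 2, beside 0.807%. Without GB-IL liver 4 the fit called 4 of the 9 genes it tested, Alox5, Alox5ap, Dpep2 and Fpr2, beside 21.5% of all genes. Alox5 in that fit, and Dpep2 in that and the earlier fits, entered only through livers in which they were high. For both, 0 DIO livers reached the filter's level. A fit of only these 2 groups called 0 of the 7 it tested, where 0% of all genes passed. Fpr2 was the 1 gene whose groups did not overlap, a pattern seen upwards in 1.27% of all genes. In RYGB against DIO, 1 of 8 was below 0.05 unadjusted, beside 8.71% of all genes, DESeq2 called 0, and voom called 1, Ephx2 (adjusted p = 0.0293), beside 1690 or 11.9% of all genes.

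The GB-IL livers did not share a single profile over the 10 genes. Liver 3 was above all DIO livers in 8 of 10 genes, liver 1 in 6, liver 2 in 5 and liver 4 in 4, where 25.6%, 36.1%, 35.4% and 15.6% of all tested genes lay above all DIO livers. Relative to the DIO mean, Dpep2 was 21.9 and 23.7 times higher in livers 1 and 2 and 6.64 times in liver 3. Fpr1, Fpr2, Ptgs1, Ptgs2 and Alox5 instead had their highest value in liver 3, with 4.27, 8.98, 2.31, 15.3 and 15.4 times the DIO mean. In liver 4 the genes above the DIO range were Fpr1 (2.14 times), Fpr2 (2.86 times), Ptgs1 (1.23 times) and Ptgs2 (7.25 times, on 6 counts), and none of the leukotriene genes was. Among the RYGB livers, liver 5 had the highest Alox5 (4.81 times), Alox5ap (2.22 times) and Dpep2 (3.71 times) and the lowest Ephx2 (0.411 times).

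**Figure D3:**
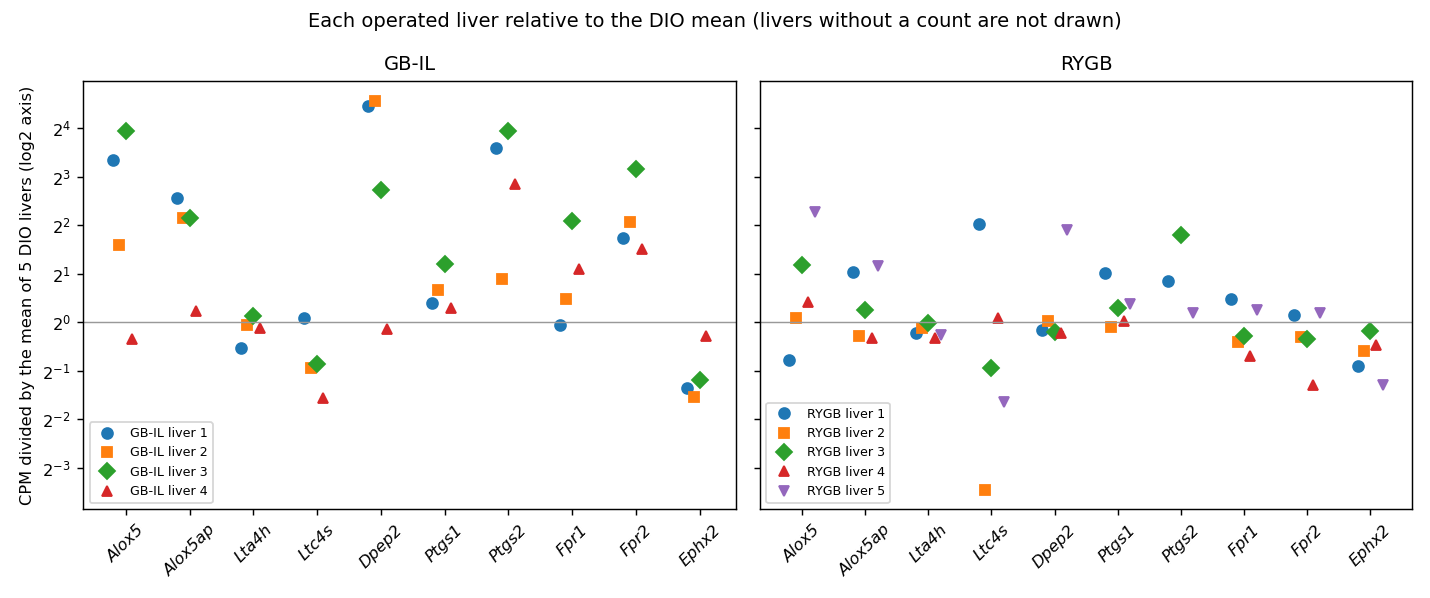
CPM of each gene in each operated liver divided by the mean of the 5 DIO livers (log2 axis), for the 4 GB-IL and 5 RYGB livers, 1 marker shape for each liver. GB-IL liver 4 lies near 1 for Alox5, Alox5ap and Dpep2 but at 2.86 for Fpr2, and RYGB liver 5 lies highest of its group for Alox5, Alox5ap and Dpep2.

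The summed markers of neutrophils and of monocytes and macrophages were above the DIO range in GB-IL livers 1 to 3. Of 12 neutrophil markers 9 were tested and 6 rose in GB-IL against DIO, S100a8, S100a9, Mmp8, Mmp9, Retnlg and Cxcr2, where 3.15% of all genes rose. Mmp8, Ngp and Ltf were tested only through operated livers, since 0 DIO livers reached the filter's level, so the count describes and does not support. Their list summed to 6.49 to 12.0 CPM in DIO, with no count of Ly6g, to 134, 71.2, 481 and 7.38 CPM in GB-IL livers 1 to 4, and to 8.83 to 14.4 CPM in RYGB livers 1 to 4 but 142 CPM in RYGB liver 5. In GB-IL liver 4 the neutrophil sum was within the DIO range, and the monocyte and macrophage sum, the Kupffer cell sum and Fpr2 were above it. The part of any of these cells in Fpr2 was not tested. Of 9 monocyte and macrophage markers 4 rose (Lyz2, Cd68, Ms4a7 and Itgam), and their sum was 63.8 to 127 CPM in DIO, 304, 477, 628 and 151 CPM in GB-IL and 78.9 to 183 CPM in RYGB, and 67.7% to 86.8% of it was Lyz2 in every liver. Lyz2 was the 1 gene of the 9 whose 4 GB-IL livers all lay above DIO. Without it the other 8 summed to 15.1 to 25.6 CPM in DIO and 59.6, 63.0, 97.1 and 29.5 CPM in GB-IL.

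Of 8 Kupffer cell markers 1 rose, Marco, and the sum was 613 to 778 CPM in DIO, 429, 777, 2067 and 810 CPM in GB-IL and 723 to 1038 CPM in RYGB, highest in GB-IL liver 3. Of 6 cholangiocyte markers 3 rose in GB-IL against DIO (Krt19, Krt7 and Spp1), where 3.15% of all genes rose. The list summed to 30.4 to 66.0 CPM in DIO, 58.2 to 321 CPM in GB-IL and 56.9 to 67.2 CPM in RYGB. Of 8 markers of stellate cells and fibroblasts 1 rose, Des, with 124 to 171 CPM in DIO, 129 to 408 CPM in GB-IL and 184 to 384 CPM in RYGB. Mast cell markers, of which 0 were tested, summed to at most 3.15 CPM in any liver. Of 8 platelet markers 3 were tested and none passed, with 3.36 to 6.86 CPM in DIO, 2.51 to 18.2 CPM in GB-IL and 2.89 to 18.2 CPM in RYGB. None of 6 T and NK cell, 3 B cell and 7 endothelial markers tested passed, and no marker of any list passed in the other 2 comparisons. The part of these cells in the results was not tested.

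**Figure D4:**
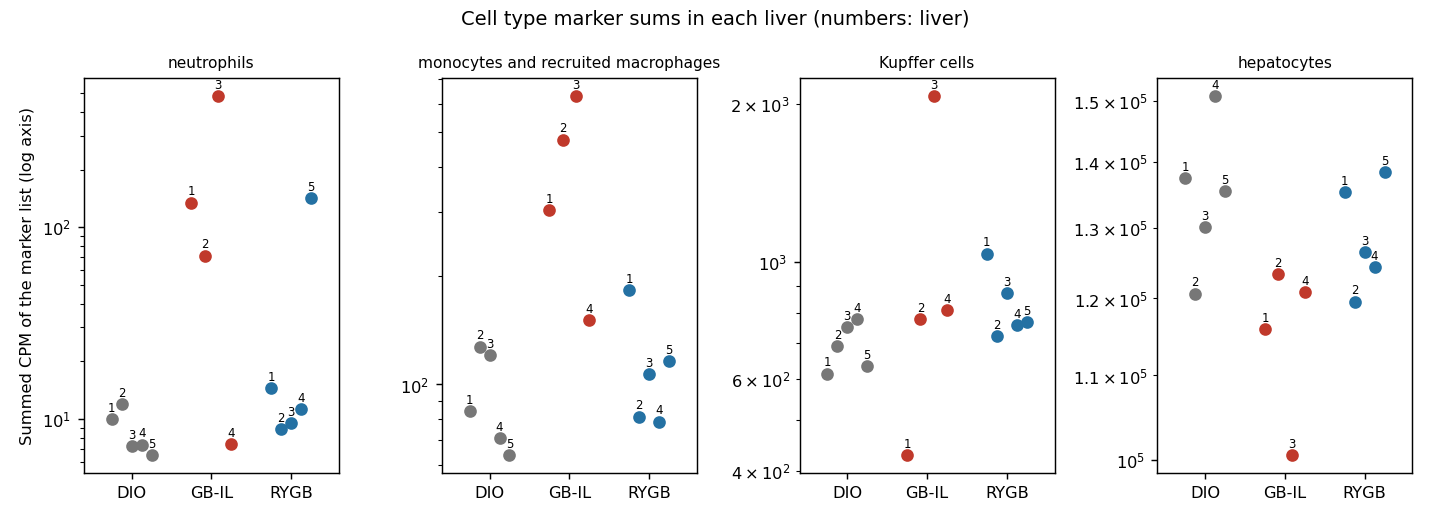
Summed CPM (log axis) of the marker lists of neutrophils, monocytes and recruited macrophages, Kupffer cells and hepatocytes in each liver, numbered within its group. GB-IL livers 1 to 3 and RYGB liver 5 lie above 71 CPM for neutrophils and the other 10 livers at or below 14.4 CPM.

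Across all 14 livers the genes whose log2 CPM followed each member most closely were named as a description, since all points share the same libraries and the GB-IL livers spread widely. For Alox5ap they were Fxyd5 (Pearson r = 0.981), Lgmn (0.972) and Emilin2 (0.968), and for Dpep2 they were Tpd52 (0.982), Kng2 (0.982) and Gpnmb (0.979). Ptgs1 was followed by Msr1 (0.928), a scavenger receptor of macrophages, Nrros (0.925) and Adap1 (0.921). Fpr1 was followed by Hk3 (0.957), Was (0.951) and Ly9 (0.933), and Fpr2 by Spic (0.941), a factor of red pulp macrophages and Kupffer cells, Rgs10 (0.935) and Rasa4 (0.935). The closest to Ephx2 were Cml5 (0.963), Trap1 (0.950) and Adipor2 (0.945), to Lta4h Vmn1r65 (0.906), Apip (0.885) and Txnl4a (0.884), and to Ltc4s, with lower Pearson values, Cmtm8 (0.752), Amigo2 (0.747) and Tmcc2 (0.744). By Spearman rank correlation these 3 had 0.855, 0.864 and 0.6 with Ltc4s. Tpd52, Kng2 and Gpnmb had 0.881, 0.780 and 0.705 with Dpep2, so the order of the genes depended on the measure.

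Of 79 other genes of the same pathways in the table, 55 were tested. In GB-IL against DIO 11 rose and none fell, where 3.15% of all tested genes rose, and the median was 0.29 (log2). The lists were chosen with earlier results of these data known, so the counts of each list describe and do not support. In RYGB against DIO and in GB-IL against RYGB none passed edgeR's test, with 11 and 23 below 0.05 unadjusted, beside 8.71% and 22.1% of all genes, and medians of 0.16 and 0.10.

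In the leukotriene pathway 3 of 9 rose in GB-IL. Ltb4r1, the high-affinity receptor for the product of Lta4h, rose by 1.92 on the log2 scale (SE 0.433, adjusted p = 0.0329, 3 of 4 livers above all DIO livers). Dpep1, a dipeptidase related to Dpep2, gave 2.43 (SE 0.581, adjusted p = 0.0365) with all 4 livers above, and Cyp4f18, which inactivates that leukotriene in myeloid cells, gave 1.73 (SE 0.433, adjusted p = 0.0433). Dpep3, too low to test, had 0 counts in DIO, 45 in GB-IL and 4 in RYGB. The receptor Cysltr1 gave 0.82 (SE 0.574, adjusted p = 0.380) in GB-IL and 1.22 (SE 0.542, adjusted p = 0.550) in RYGB. In RYGB the smallest p-value of the list belonged to Abcc1, the exporter of cysteinyl leukotrienes, with 0.54 (adjusted p = 0.547), and against RYGB to Cyp4f18 with 1.83 (adjusted p = 0.0820). Of the other lipoxygenases 2 were tested and neither passed, Alox15 with 1.23 (adjusted p = 0.553) in GB-IL and 1.50 (adjusted p = 0.755) in RYGB, and Alox12 with 0.28 (adjusted p = 0.751) against RYGB.

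For prostanoid synthesis and breakdown 2 of 14 rose in GB-IL. Hpgds, a prostaglandin D synthase of blood cells, gave 1.26 (SE 0.281, adjusted p = 0.0320) with all 4 livers above DIO, and Akr1b3, an aldose reductase, gave 1.20 (SE 0.288, adjusted p = 0.0366) with 3 livers above and 1 below. In RYGB Hpgds had the smallest p-value with 0.90 (adjusted p = 0.387) and all 5 livers above DIO, and against RYGB it was Akr1b3 with 1.04 (adjusted p = 0.0976). Of 4 prostanoid receptors 1 rose in GB-IL, the prostaglandin E receptor Ptger4 with 1.64 (SE 0.417, adjusted p = 0.0458), which gave 1.26 (adjusted p = 0.120) against RYGB. In RYGB Tbxa2r, the thromboxane receptor, gave 0.84 (adjusted p = 0.521). Of 9 phospholipases and suppliers of arachidonate 1 rose, Pla2g7, which hydrolyses platelet-activating factor, with 2.71 (SE 0.591, adjusted p = 0.0311), and 1.98 (adjusted p = 0.107) against RYGB. In RYGB Pla2g6 came first with -0.68 (adjusted p = 0.456).

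All 4 tested relatives and ligands of the formyl peptide receptors rose in GB-IL against DIO, where 3.15% of all genes rose. None passed in RYGB against DIO, where 0% of all genes did. This list, too, was chosen with earlier results known, so its count describes and does not support. Anxa1, a ligand of Fpr2, rose from 3.09 ± 0.878 to 17.1 ± 12.3 CPM (2.47, SE 0.445, adjusted p = 0.0278) with all 4 livers above DIO, the complement receptors C3ar1 and C5ar1 by 1.23 (adjusted p = 0.0278) and 1.97 (adjusted p = 0.0352), and the chemerin receptor Cmklr1 by 1.17 (adjusted p = 0.0450). In RYGB Cmklr1 gave 0.41 (adjusted p = 0.709), and against RYGB Anxa1 gave 1.87 (adjusted p = 0.0807). The 13 tested genes around Ephx2 in the epoxide pathway had a median of -0.93 in GB-IL and 0.07 in RYGB, and none passed. Cyp2c37 gave -1.12 (adjusted p = 0.119) in GB-IL. In RYGB Cyp2c40 gave 3.27 (adjusted p = 0.373), between 0.739 and 17.9 CPM in RYGB livers and 0.481 and 0.886 CPM in DIO, and it gave -3.85 (adjusted p = 0.0943) in GB-IL against RYGB.

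**Figure D5:**
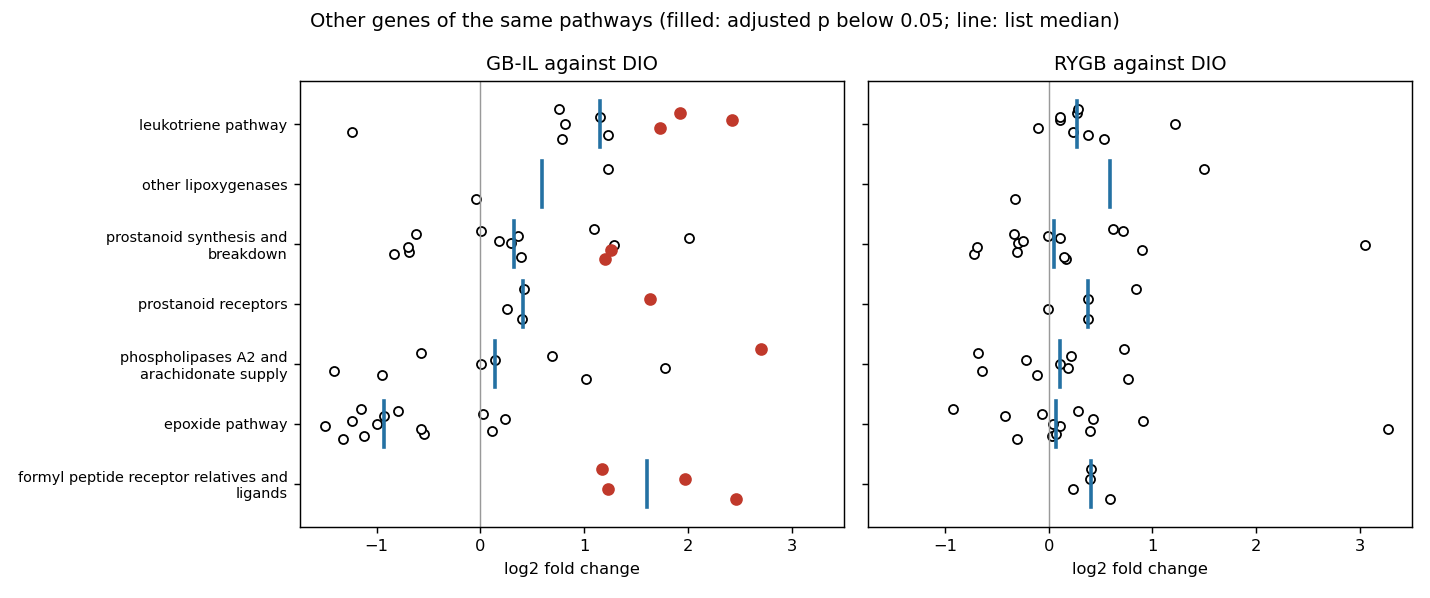
Log2 fold changes (x axis) of the 55 tested pathway genes by list (rows) in GB-IL and RYGB against DIO, filled where the adjusted p was below 0.05, with the list median as a line. The filled points are the 11 genes of GB-IL, 4 of them in the list of formyl peptide receptor relatives, and the epoxide pathway has a median of -0.93 in GB-IL.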

How the data were processed

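Liver RNA of 14 mice was sequenced. The study's methods describe amplification of total RNA, and the labels name 2 stranded TruSeq kits without assigning them to livers, so kit and group cannot be told apart. The authors aligned reads to mm10 with TopHat2 and counted them with HTSeq (versions, annotation and strand setting not given in the sources used here), and deposited whole counts per gene without normalization.

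Here counts were kept by filterByExpr, scaled by TMM and tested with the quasi-likelihood test of edgeR 4.0.16 (limma 3.58.1, R 4.3.3) in a joint model of the 3 groups, with Benjamini-Hochberg adjustment over 14252 genes at 0.05. The method was tested on simulated data. The simulation gave the 3 groups a shared spread for each gene, so it did not check the test at the unequal spread described below. Alternatives were RLE scaling, DESeq2 1.42.0, limma's voom with sample quality weights, no filter, the compared groups alone, the replicate number as a block, and each liver left out. Genes with too few counts were compared as rates, with exact permutation tests (scipy 1.17.1) and Clopper-Pearson intervals. Reads are not independent molecules, so these intervals cover counting error only.

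The genes and lists were chosen with earlier results of these data known. Named were all 10 genes, up to 3 called genes (otherwise the 1 with the smallest p-value) of each pathway list and comparison, and the 3 genes of at least 1 mean CPM most like each tested gene. C3ar1, C5ar1 and Cmklr1 beside Anxa1, Dpep3, Cysltr1 and the marker genes were named after their values were seen. Positions and exon lengths are those of GENCODE M21 (GRCm38), which 24701 identifiers matched. The p-values of the joint model measure a spread shared by all 3 groups, not that of the 2 compared groups alone. That spread was unequal. As edgeR's common coefficient of biological variation it was 0.2435 in DIO, 0.543 in GB-IL and 0.295 in RYGB.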

Additional observations from a re-analysis of the deposited data

Results flagged for a closer look

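Within groups of 4 or 5 livers, the CPM of each of the 10 genes was searched for a liver far from the others, 30 gene and group pairs in all, of which chance picks about 1 in 20. In RYGB liver 1 Ltc4s reached 2.19 CPM, with the next RYGB liver at 0.579 CPM, so that the gap made up 0.752 of the range of the group. In RYGB liver 5 Dpep2 reached 0.900 CPM, with the next at 0.247 CPM and a gap of 0.943 of the range. The neutrophil markers of RYGB liver 5 summed to 142 CPM, and those of RYGB liver 1 to 14.4 CPM. Their part in these values was not tested.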

How the results depend on the processing

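For GB-IL against DIO, where 3 of the 10 genes and 465 of all genes passed, RLE scaling gave 3 and 472, DESeq2 4 and 1292, voom with sample quality weights 6 and 589, no filter 3 and 522, and the compared groups alone 0 of 6 genes tested and 0 of all. For RYGB against DIO (0 and 0), DESeq2 gave 0 and 97, voom 1 and 1690 and the compared groups alone 0 and 33. For GB-IL against RYGB (0 and 0), DESeq2 gave 4 and 845, voom 2 and 115, no filter 1 and 51, and the compared groups alone 0 of 7 genes tested and 0 of all. Leaving out 1 liver gave 0 to 6, always 0, and 0 to 4 of the 10 genes in the 3 comparisons, and 0 to 3572, 0 to 5 and 0 to 3120 of all genes, each highest without GB-IL liver 4. The fits without 1 liver have fewer samples; other causes were not tested.

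Same-numbered livers of different groups did not deviate together (correlations of -0.38 to 0.38, best with its own number in 1 of 13). The check thus gave no sign that the numbers pair the livers. It cannot exclude a pairing that leaves no such correlation. With the replicate block 0 of the 10 genes and 1 of all genes passed in GB-IL against DIO, and Fpr2 had 2.29 (adjusted p = 0.0677). The other comparisons still had 0.

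Of 472 alternative fold changes of the tested genes, 419 kept direction and side of the threshold, 26 lost and 17 gained a call, and 10 changed sign. In RYGB against DIO Ltc4s turned to -0.72 with voom, -0.35 with the replicate block and -0.96 without RYGB liver 1 (range over livers left out -0.96 to 0.53). There Fpr1 ranged from -0.24 to 0.10, Fpr2 from -0.42 to 0.093 and the log2 ratio of Ptgs2 from -0.49 to 1.71. In GB-IL against RYGB Lta4h ranged from -0.040 to 0.16 and Ltc4s from -1.31 to 0.27. At this depth Alox5 and Ptgs2 rest on few counts in every group.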
